A study of Rattus norvegicus with 12 samples.

Results

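The genes described here are those of MHC class II presentation, the system by which antigen-presenting cells show fragments of engulfed proteins to CD4+ T cells. They are Ciita, Cd74, RT1-Da, RT1-Db1, RT1-Ba, RT1-Bb, RT1-DMa and RT1-DMb, 8 of the 12853 genes that the arrays measured. A gene was taken as measured when at least 1 probe set (the group of short probes that reads a transcript) named it alone and passed a filter on dim values. The 8 genes have 14 such probe sets, all of which passed. The probe set of highest mean stands for its gene, and the others are given as a check.

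RNA was taken from the cells of bronchoalveolar lavage fluid (BALF) of male Sprague-Dawley rats 8 weeks old, kept without food and water during the experiment. The COMB group received LPS, a bacterial endotoxin, at 0.5 mg/kg and then 6 h in a decompression chamber at 405.35 mmHg, the pressure at 5000 m, equal to 11.2% oxygen. The LPS group received LPS in normal air, the HPO group received the hypoxia without LPS, and the CTL group was given saline in normal air. Each group had 3 arrays, and each array held the RNA of several rats of its group. Pools are named by the numbers of their rats, which count within a group. In the order in which values are given, the COMB pools held rats 2 and 3, then 10 and 11, then 12, 13 and 14. The LPS pools held rats 2, 3 and 6, then 5, 7 and 11, then 8, 9 and 10. The HPO pools held rats 7, 8 and 9, then 2, 4 and 11, then 3, 5 and 12. The CTL pools held rats 1, 3 and 4, then 5, 6 and 7, then 8, 9 and 10. According to its methods the study mixed 3 rats in each pool, but by these labels a pair of COMB pools held 2 rats each.

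MHC class II molecules are pairs of an alpha and a beta chain. In rats RT1-Da and RT1-Db1 encode the pair that corresponds to human HLA-DR, and RT1-Ba and RT1-Bb the pair that corresponds to HLA-DQ. Cd74 is the invariant chain, which fills the binding groove of new molecules and escorts them to endosomes. RT1-DMa and RT1-DMb form DM, which exchanges the last piece of the invariant chain for peptide. Ciita is the class II transactivator, a coactivator that does not bind DNA itself but is recruited by factors sitting on the X and Y boxes of class II promoters. Interferon gamma is its best known inducer in macrophages.

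The promoters are shown first because Ciita is recruited through the X and Y boxes of class II promoters. The letters searched here did not show both boxes in every promoter found. RefSeq promoters of the rat assembly GRCr8, from 250 bases before to 50 bases after each start, were found for 6 of the 8 genes, all but Ciita and RT1-DMb. The letters ACNGATG, from the X box, and GATTGG, the Y box, were searched on both strands, and the letters were chosen with these promoters in view. RT1-Da (chr20:4515326-4515380, plus strand), RT1-Db1 (chr20:4560228-4560281, minus strand), RT1-Bb (chr20:4604165-4604218, minus strand) and RT1-DMa (chr20:4712385-4712439, minus strand) carried the X letters followed by the Y letters on the strand of the gene. RT1-Ba (chr20:4576968-4577028, plus strand) carried the Y letters alone. Cd74 (chr18:56526972-56527031, plus strand) carried neither, and CCAAT, the core of the Y box on the opposite strand, is marked instead. The windows read as follows, 5′ to 3′ along the gene, with the X letters and the Y letters or CCAAT in capitals.
RT1-Da: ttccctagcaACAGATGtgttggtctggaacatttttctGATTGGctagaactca
RT1-Db1: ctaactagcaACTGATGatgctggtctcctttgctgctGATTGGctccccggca
RT1-Bb: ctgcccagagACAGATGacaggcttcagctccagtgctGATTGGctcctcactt
RT1-DMa: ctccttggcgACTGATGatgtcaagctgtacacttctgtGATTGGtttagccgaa
RT1-Ba: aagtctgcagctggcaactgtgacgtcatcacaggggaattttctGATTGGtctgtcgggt
Cd74: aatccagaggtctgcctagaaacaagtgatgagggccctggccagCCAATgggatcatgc

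The spacing was nearly constant, with 22 bases between the 2 sets of letters in RT1-Da and RT1-DMa and 21 in RT1-Db1 and RT1-Bb. The Y letters began 50 bases before the start of RT1-Da, 65 before that of RT1-DMa, 62 before that of RT1-Bb and 81 before that of RT1-Db1. Over all 33469 promoters of the table, 10.2% held the X letters, 14.8% the Y letters and 37.5% CCAAT on either strand. The X letters followed by the Y letters after 15 to 30 bases stood in 20 promoters, or 0.0598%. RT1-Db2 and RT1-DOb, further class II chain genes, are among those 20 besides the 4 named above. A match describes letters and not a bound site.

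The expression values are intensities, in arbitrary units on a linear scale, as the authors deposited them, and a level can be compared between pools for 1 probe set but not between probe sets. Changes are differences of group means of log2(intensity + 1), with 95% intervals and p values from limma, a linear model fitted across all probe sets, with Benjamini-Hochberg adjustment over all 25692 probe sets that passed the filter. A gene was called at an adjusted p under 0.05. Array medians were alike, between 32.72 and 35.61. The lavage cells carried alveolar macrophage markers throughout, with summed intensities over 14 genes of 29900 to 32800 in COMB, 35800 to 38600 in LPS, 35400 to 36200 in HPO and 34300 to 38400 in CTL pools. In a mixture of cells, more cells of a type and more RNA per cell cannot be told apart. By their numbers the pools of a group held different rats, and p values measure the spread between such pools.

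With both exposures, the transactivator, the invariant chain and the DR-type pair were higher than in CTL, by 3.12-fold to 3.95-fold, and DM was not. For the transactivator Ciita this holds for 1379381_at and not for its other probe set. In COMB against CTL, 4 of 8 genes were called higher, Ciita, Cd74, RT1-Da and RT1-Db1, beside 11.0% of all genes called higher. None of the 8 was called lower, beside 11.0% of all genes called lower. The median log2 fold change of the 8 genes was 1.47, against -0.03 over all genes. Cd74, RT1-Da, RT1-Db1 and Ciita had every COMB pool above every CTL pool. Such separation of pools is given here and below as a description of each gene. Its share over all genes was not counted.

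Ciita, the transactivator, had intensities of 85.9, 109 and 147 in COMB pools, 50.2, 35.4 and 35.4 in LPS pools, 28.9, 31.5 and 20.7 in HPO pools, and 22.1, 47.0 and 41.3 in CTL pools. Every COMB pool was above every other pool, and the LPS and HPO pools overlapped with CTL. It was higher in COMB than in CTL by 1.64 on the log2 scale (95% interval 1.03 to 2.24, adjusted p = 0.00165 in limma), a 3.12-fold change. Against LPS the difference was 1.46 (adjusted p = 0.00641 in limma) and against HPO 2.02 (adjusted p = 6.85e-04 in limma). These 3 calls were kept when any 1 pool of the groups compared was left out. The other Ciita probe set did not show this, with 36.5, 54.7 and 48.2 in COMB pools and 37.3, 47.7 and 45.1 in CTL pools. Its difference was 0.09 (95% interval -0.30 to 0.47, adjusted p = 0.784 in limma), and its correlation with the first over the 12 arrays was 0.53. The first, 1379381_at, stands for the gene by its mean log2 over all arrays (5.53, against 5.46 for the other), and outside COMB the other was brighter (5.10 for the first and 5.43 for the other), so the choice rests on the COMB values. The other was called in no comparison. With the mean of both probe sets Ciita was called higher in COMB against CTL, LPS and HPO. That mean contains the first probe set and is not an independent check. What part of the Ciita transcripts each probe set reads was not analysed here.

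Cd74, the invariant chain, had intensities of 3129, 3837 and 3770 in COMB pools, 703, 796 and 670 in LPS pools, 1101, 1327 and 1112 in HPO pools, and 371, 2295 and 1082 in CTL pools. The COMB pools lay close together and above all others, while the CTL pools ranged from the lowest value of the series to well over those of LPS and HPO. COMB exceeded CTL by 1.87 (95% interval 0.88 to 2.86, adjusted p = 0.0132 in limma), a 3.66-fold change. The difference was 2.30 against LPS (adjusted p = 0.00789 in limma) and 1.60 against HPO (adjusted p = 0.0335 in limma). Leaving out the CTL pool of rats 1, 3 and 4 lowered the difference from CTL to 1.18, and leaving out the CTL pool of rats 5, 6 and 7 gave 2.49, with the call kept in each case. The model assumes an equal spread in the 4 groups, whereas Cd74 spanned 6.19-fold in CTL pools and 1.23-fold in COMB pools. With only COMB and CTL fitted, the difference of 1.87 was not called (adjusted p = 0.0794 in limma).

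RT1-Da, the alpha chain of the DR-type pair, had 2305, 2209 and 2186 in COMB pools, 372, 430 and 345 in LPS pools, 672, 832 and 655 in HPO pools, and 183, 1810 and 613 in CTL pools. RT1-Db1, its beta chain, had 1046, 946 and 982 in COMB pools, 136, 172 and 127 in LPS pools, 269, 313 and 280 in HPO pools, and 82.1, 834 and 228 in CTL pools. In both chains the COMB pools were the highest, the LPS pools lay below all HPO pools, and the CTL pools ran from below the LPS pools to above the HPO pools. The COMB pools of RT1-Da differed by only 1.05-fold, and those of RT1-Db1 by 1.11-fold. RT1-Da was higher in COMB than in CTL by 1.92 (95% interval 0.70 to 3.15, adjusted p = 0.0322 in limma). RT1-Db1 was higher by 1.98 (95% interval 0.74 to 3.22, adjusted p = 0.0296 in limma). Both calls rested on most of the pools: each was lost without the CTL pool of rats 1, 3 and 4, where the differences fell to 1.08 for RT1-Da (adjusted p = 0.0563 in limma) and 1.18 for RT1-Db1 (adjusted p = 0.0727 in limma). They were also lost when the CTL pool of rats 8, 9 and 10 or any single COMB pool was left out, with differences of 1.90 to 1.95 for RT1-Da and 1.91 to 2.01 for RT1-Db1. Without the CTL pool of rats 5, 6 and 7 the differences were 2.73 (adjusted p = 0.00068 in limma) and 2.85 (adjusted p = 0.00024 in limma). With only COMB and CTL fitted, neither was called (adjusted p = 0.127 for RT1-Da and 0.121 for RT1-Db1 in limma). The probe set of RT1-Db1 has the suffix that marks probes shared with related transcripts. A further one, 1370382_at, was dim, at 13.2, 12.1 and 14.0 in COMB pools and 7.8, 14.6 and 8.8 in CTL pools, and was not called.

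RT1-DMa, the alpha chain of DM, had 739, 505 and 636 in COMB pools, 721, 712 and 545 in LPS pools, 608, 606 and 708 in HPO pools, and 815, 704 and 660 in CTL pools. All groups overlapped, and its difference between COMB and CTL was -0.22 (95% interval -0.56 to 0.11, adjusted p = 0.358 in limma). RT1-DMb, the beta chain, had 1527, 1301 and 1575 in COMB pools, 1350, 1461 and 1246 in LPS pools, 1706, 1808 and 2151 in HPO pools, and 2006, 1889 and 1599 in CTL pools. Here every COMB pool and every LPS pool was below every CTL pool, if narrowly. The difference was -0.32 for COMB (95% interval -0.59 to -0.04, adjusted p = 0.10 in limma) and -0.43 for LPS (95% interval -0.71 to -0.16, adjusted p = 0.107 in limma), neither of them called. The upper bounds of these intervals lie below the lower bounds for Cd74, RT1-Da and RT1-Db1 in COMB against CTL. The RT1-DMa promoter matches the same X and Y patterns as that of RT1-Da, 22 bases apart in both.

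**Figure D1:**
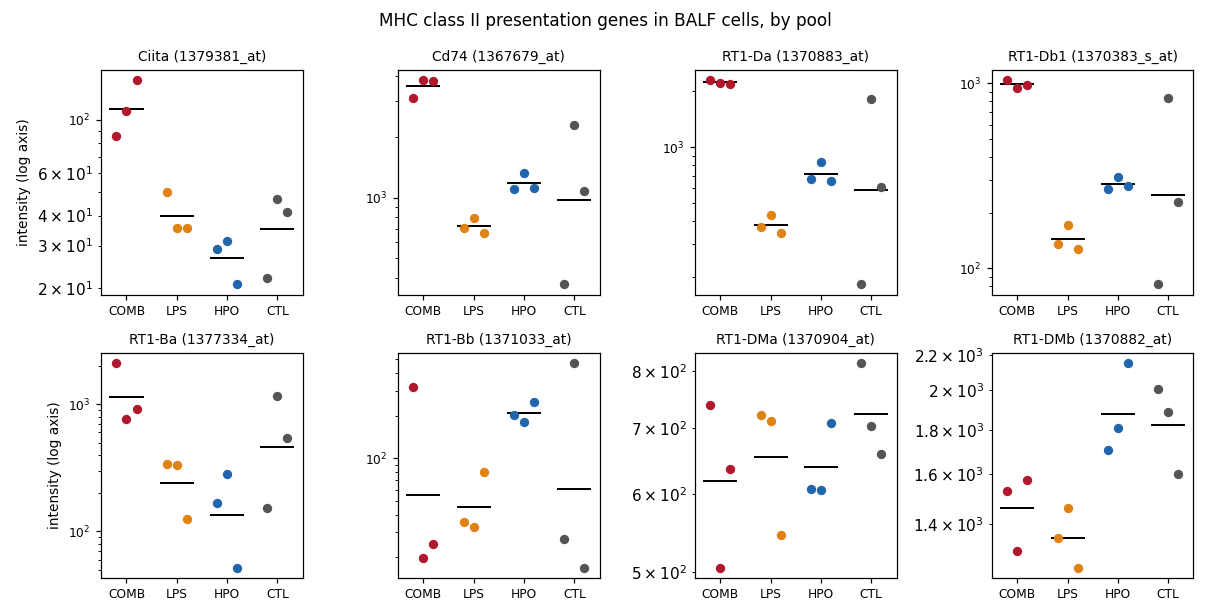
Intensity (log axis, a scale of its own in each panel) of the 8 genes in each pool, with groups COMB, LPS, HPO and CTL from left to right. Points are pools and the line is the group mean of log2(intensity + 1) turned back to intensity. Ciita, Cd74, RT1-Da and RT1-Db1 had all 3 COMB points above all others, whereas the panels of RT1-DMa and RT1-DMb cover narrow ranges, 505 to 815 and 1246 to 2151.

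The DQ-type pair could not be read in the same way, because its probe sets disagreed from pool to pool. RT1-Ba, the alpha chain, had 2103, 762 and 919 in COMB pools, 341, 330 and 125 in LPS pools, 167, 282 and 52.0 in HPO pools, and 153, 1154 and 545 in CTL pools with its brightest probe set, 1377334_at. COMB was above all LPS and HPO pools but overlapped with CTL. The difference was 1.31 against CTL (95% interval -0.32 to 2.94, adjusted p = 0.259 in limma), 2.23 against LPS (adjusted p = 0.0749 in limma) and 3.06 against HPO (adjusted p = 0.0166 in limma). The probe set 1370822_at had 209, 900 and 959 in COMB pools, 79.2, 124 and 67.6 in LPS pools, 184, 182 and 120 in HPO pools, and 47.4, 283 and 203 in CTL pools. It was called higher in COMB than in CTL (2.01, adjusted p = 0.0492 in limma) although 1 COMB pool lay within the CTL range, and than in LPS (2.68, adjusted p = 0.0209 in limma), but not than in HPO (1.82, adjusted p = 0.0808 in limma).

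The remaining RT1-Ba probe sets, 1392334_at and 1381593_x_at, followed each other (correlation 0.99 over 12 arrays) and neither of those above (0.07 and -0.06 for 1392334_at, 0.03 and -0.10 for 1381593_x_at). With 1392334_at the COMB pools had 712, 161 and 189 and the CTL pools 164, 674 and 162, so that 1 pool in each group was high. The HPO pools were uniform, at 446, 449 and 502. For COMB against HPO these probe sets gave -0.73 with 1392334_at and -0.90 with 1381593_x_at, neither called, where 1377334_at gave 3.06. Outside COMB the mean log2 of 1392334_at (8.26) was above that of 1377334_at (7.95), so that here too the choice of the probe set rests on the COMB values.

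RT1-Bb, the beta chain, showed the same division. Its brighter probe set, 1371033_at, had 320, 19.8 and 24.7 in COMB pools, 35.3, 32.8 and 80.3 in LPS pools, 201, 179 and 248 in HPO pools, and 26.9, 469 and 16.9 in CTL pools. It was high in the COMB pool of rats 2 and 3, the CTL pool of rats 5, 6 and 7 and all HPO pools, the same pools in which 1392334_at of RT1-Ba was high. Its other probe set, 1371065_at, had 28.4, 470 and 486 in COMB pools, 23.9, 50.1 and 29.9 in LPS pools, 31.2, 51.9 and 15.9 in HPO pools, and 25.7, 40.8 and 117 in CTL pools. It was high in the COMB pools in which the first was low, and the correlation of the probe sets over the 12 arrays was -0.57. For COMB against CTL the first gave -0.15 (95% interval -2.67 to 2.37) and the second 1.89 (95% interval -0.12 to 3.90), neither called. The CTL pools of 1371033_at spanned 27.7-fold and the COMB pools 16.1-fold, where the median gene spanned 1.16-fold and 1.23-fold. Class II chain genes are among the most polymorphic of the genome and Sprague-Dawley rats are outbred. The haplotypes of these rats were not analysed here, and their part in the disagreement was not tested.

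**Figure D2:**
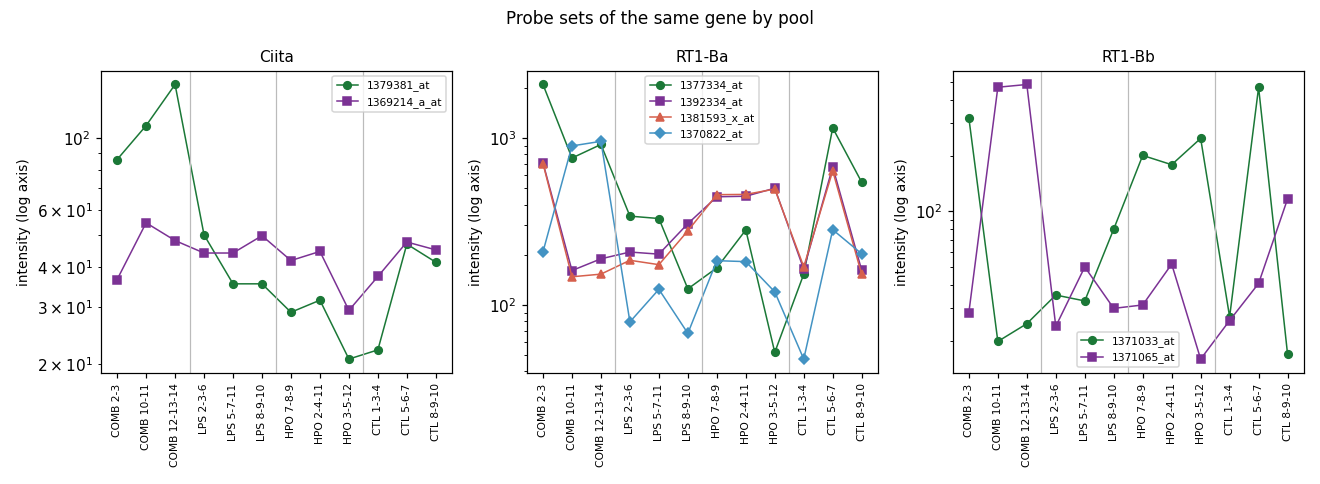
Intensity (log axis) of every probe set of Ciita, RT1-Ba and RT1-Bb in the 12 pools, with COMB pools at the left and CTL pools at the right of each panel. Lines only join the points of a probe set. The RT1-Bb probe sets crossed between the COMB pool of rats 2 and 3 (320 and 28.4) and the COMB pool of rats 10 and 11 (19.8 and 470).

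Compared with LPS, 4 of 8 genes were called higher in COMB, again Ciita, Cd74, RT1-Da and RT1-Db1, beside 8.64% of all genes, and none lower, beside 5.04%. The median difference of the 8 genes was 1.85, against 0.00 over all genes. The DR-type chains differed most, RT1-Da by 2.55 (95% interval 1.32 to 3.78, adjusted p = 0.0135 in limma) and RT1-Db1 by 2.78 (95% interval 1.54 to 4.02, adjusted p = 0.00932 in limma), the second a 6.85-fold change. Without the LPS pool of rats 8, 9 and 10 the RT1-Da difference was 2.48 and no longer called (adjusted p = 0.0514 in limma). Compared with HPO, 3 of 8 genes were called higher in COMB, namely Ciita, Cd74 and RT1-Ba, beside 9.18% of all genes, and none lower, beside 9.36%. The RT1-Ba call holds for the probe set that stands for the gene, and with the mean of its 4 probe sets the difference was 0.81 and not called (adjusted p = 0.259 in limma). RT1-DMb, with every HPO pool above every COMB pool, differed by -0.36 (adjusted p = 0.0734 in limma), and was called lower after quantile normalization (-0.37, adjusted p = 0.0385 in limma) and in a trended and robust fit (-0.36, adjusted p = 0.0385 in limma). RT1-Da (1.64, adjusted p = 0.0712 in limma) and RT1-Db1 (1.78, adjusted p = 0.0535 in limma) had all COMB pools above all HPO pools without passing the threshold. The Cd74 call against HPO was lost when any HPO pool was left out, and likewise for the second or the third COMB pool, at differences of 1.55 to 1.69. The RT1-Ba call was lost without the HPO pool of rats 3, 5 and 12 (2.38, adjusted p = 0.0593 in limma). The comparisons of COMB with CTL, LPS and HPO share the COMB pools and are not independent.

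Neither exposure alone moved a gene of the set past the threshold. In LPS against CTL, 0 of 8 genes were called, beside 1.24% of all genes called higher and 1.54% called lower. The lowest unadjusted p was that of RT1-DMb, 0.00468 in limma, which became 0.107 on adjustment. Cd74 differed by -0.43 (95% interval -1.42 to 0.56), RT1-Da by -0.63 (-1.85 to 0.60) and RT1-Db1 by -0.80 (-2.04 to 0.44), and Ciita by 0.18 (-0.43 to 0.78). Without the CTL pool of rats 5, 6 and 7 the differences for Cd74, RT1-Da and RT1-Db1 were 0.19, 0.19 and 0.07, of opposite sign. In HPO against CTL, 0 of 8 genes were called, beside 0.0311% of all genes called higher and 0% called lower. The lowest unadjusted p was that of RT1-Ba with 1377334_at, 0.0369 in limma at a difference of -1.76. It became 0.472 on adjustment. Cd74 differed by 0.27 (95% interval -0.72 to 1.26), RT1-Da by 0.28 (-0.94 to 1.51) and Ciita by -0.38 (-0.99 to 0.22). These intervals reach beyond a 2-fold change in Cd74 and RT1-Da, so that changes of that size by LPS or hypoxia alone could not be told from none. The median difference of the 8 genes was -0.43 for LPS and 0.12 for HPO.

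Whether the change with both exposures exceeded the sum of the single ones on the log2 scale was tested as an interaction, the difference of COMB from LPS less that of HPO from CTL. None of the 8 genes was called, beside 0.179% of all genes. The estimates were 1.84 for Ciita (95% interval 0.99 to 2.70, adjusted p = 0.0844 in limma), 2.03 for Cd74 (95% interval 0.63 to 3.44, adjusted p = 0.215 in limma), 2.27 for RT1-Da and 2.58 for RT1-Db1. Unadjusted p values in limma were under 0.05 for Ciita, Cd74, RT1-Da, RT1-Db1 and RT1-Ba. The share of all genes with such values was not counted, so they are no result about the set. Without the CTL pool of rats 1, 3 and 4 the 4 genes Ciita, Cd74, RT1-Da and RT1-Db1 passed, beside 25 of all 12853 genes. Their adjusted p was 0.0162 to 0.042 in limma, at estimates of 2.17, 2.73, 3.11 and 3.38. Omitting the first COMB pool left Ciita alone of the 8 past the threshold (2.03, adjusted p = 0.0233 in limma). That fit called 400 of all genes, against 23 with all pools. Every other omission of a single pool called none of the 8 genes.

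**Figure D3:**
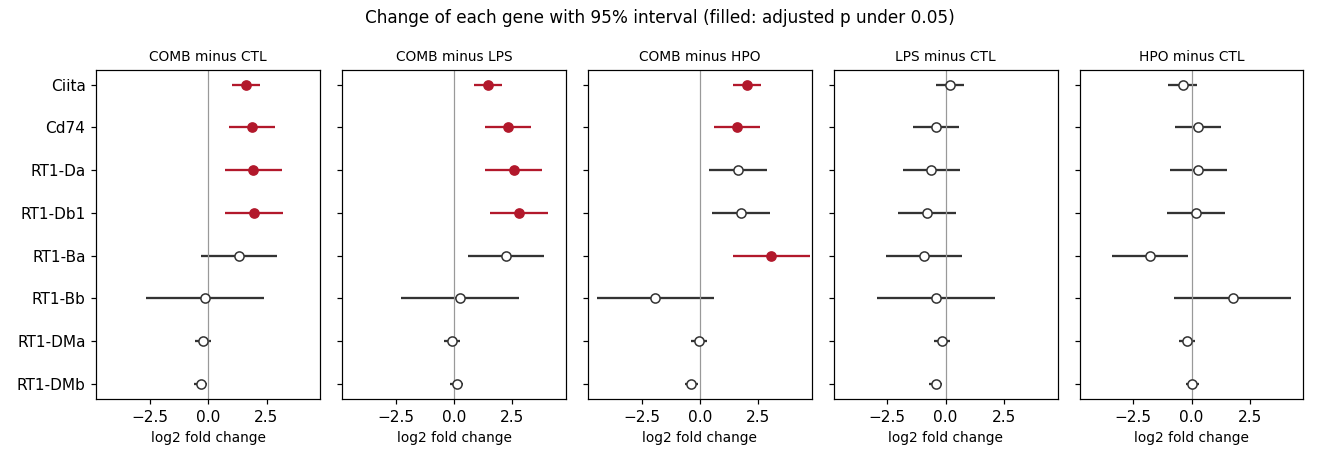
Log2 fold change of each gene with its 95% interval in 5 comparisons, each as the first named group minus the second. Filled red points have an adjusted p under 0.05. Ciita and Cd74 were filled in all 3 comparisons of COMB, and no gene was filled in LPS or HPO against CTL.

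The spread between pools was widest in CTL for every gene of the set but RT1-DMa and RT1-DMb. RT1-Ba was also wide in HPO pools (5.43-fold) and RT1-Bb in COMB pools (16.1-fold). Between CTL pools Cd74 spanned 6.19-fold, RT1-Da 9.91-fold, RT1-Db1 10.2-fold and RT1-Ba 7.53-fold, wider than 99.4%, 99.8%, 99.8% and 99.6% of all genes. The CTL spread of Ciita was 2.13-fold, wider than 97.6% of all genes. That of RT1-DMa was 1.24-fold and that of RT1-DMb 1.25-fold, wider than 70.2% and 73.5%. The CTL pool of rats 1, 3 and 4 was the lowest and that of rats 5, 6 and 7 the highest for Ciita, Cd74, RT1-Da, RT1-Db1 and RT1-Ba. The high pool also had the highest CTL values of Gzmb, a cytotoxic granule protease (863, against 23.0 and 59.2 in the other CTL pools), and Cxcl11, a chemokine induced by interferon gamma (1001, against 15.4 and 19.2). Their part in the spread of the class II genes was not tested.

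Set against its targets, the fold change of Ciita in COMB with 1379381_at was close to those of Cd74 and the DR-type chains and far from those of DM. Relative to the CTL mean on the log2 scale, Cd74 minus Ciita ranged from -0.08 to 0.41 in COMB pools, from -0.98 to -0.30 in LPS pools, from 0.45 to 0.92 in HPO pools and from -0.75 to 0.83 in CTL pools. The LPS pools were below the COMB pools and the COMB pools below the HPO pools, and the CTL pools overlapped with each of these groups. RT1-Da minus Ciita ranged from -0.14 to 0.70 in COMB pools, -1.17 to -0.46 in LPS pools, 0.46 to 0.89 in HPO pools and -1.04 to 1.21 in CTL pools, and RT1-Db1 minus Ciita ran in the same order for LPS and HPO. For DM the picture differed, as RT1-DMa minus Ciita was -2.22 to -1.24 and RT1-DMb minus Ciita -2.24 to -1.53 in COMB pools, against -0.45 to 0.81 and -0.42 to 0.78 in CTL pools, with no overlap. These differences were not tested. They rest on 1379381_at of Ciita, and the other probe set was not called. With that other probe set the order reverses. Its COMB against CTL difference of 0.09 was nearer to RT1-DMa (-0.22) and RT1-DMb (-0.32) than to Cd74 (1.87), RT1-Da (1.92) and RT1-Db1 (1.98).

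**Figure D4:**
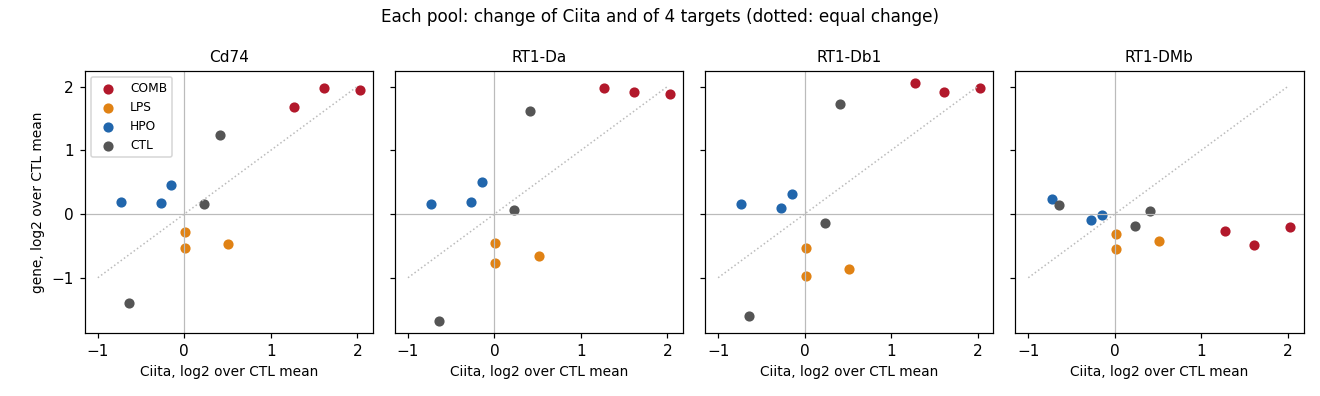
Each pool placed by its change in Ciita with 1379381_at (horizontal) and in Cd74, RT1-Da, RT1-Db1 or RT1-DMb (vertical), both as log2 relative to the mean of the CTL pools. The dotted line marks equal change. COMB pools lay between 0.14 below and 0.79 above the line for Cd74, RT1-Da and RT1-Db1, and 1.53 to 2.24 below it for RT1-DMb.

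Over the 12 arrays, the genes whose log2 values followed Cd74 most closely were RT1-Da and RT1-Db1 (Pearson r = 0.99 each), ranks 1 and 2 of 12852 genes. Cd8a, a chain of the T cell coreceptor CD8 (0.96), Blnk, an adaptor of B cell receptor signaling (0.94), and Src, a tyrosine kinase (0.94), came next. RT1-Da and RT1-Db1 kept ranks 1 and 2 when group means were taken out, with r = 0.99 and 0.97. Ciita stood at rank 163 (0.82), RT1-Ba at 586, RT1-Bb at 4297, RT1-DMb at 7171 and RT1-DMa at 9562. The 5 genes closest to Ciita were Pcp4, a calmodulin-binding protein, Relb, a subunit of NF-kappa B (0.97 each), Ccl4, a chemokine, Csf3, the granulocyte growth factor, and Tp53i11 (0.95 each). With group means taken out their ranks were 31 for Pcp4, 27 for Relb, 466 for Ccl4, 175 for Csf3 and 202 for Tp53i11. Cd74 was at rank 280 in that order, RT1-Ba at 371, RT1-Da at 536 and RT1-Db1 at 601. The arrays share groups and pools, and these correlations are a description.

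The factors that sit on the X and Y boxes with Ciita were not called against CTL. Of 8 genes, Rfx5, Rfxap and Rfxank (the RFX complex), Nfya, Nfyb and Nfyc (the NF-Y complex) and Creb1 and Atf1, none passed the threshold in COMB against CTL. This stands beside 11.0% of all genes called higher and 11.0% called lower. In 8 genes such a count is near that share and is no result about these factors. Their median log2 fold change was 0.19. Rfx5 had 302, 352 and 383 in COMB pools and 288, 274 and 283 in CTL pools (0.29, adjusted p = 0.0617 in limma). Against HPO, Nfya (0.45, adjusted p = 0.0203 in limma) and Rfx5 (0.32, adjusted p = 0.0463 in limma) were called higher in COMB, beside 9.18% of all genes.

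Of 20 measured genes that act on transcription of Ciita, 3 were called higher and 2 lower in COMB against CTL, with a median of 0.08, where 11.0% of all genes were called in each direction. Irf1, a transcription factor of the interferon gamma response, had 604, 1366 and 1478 in COMB pools, 869, 977 and 612 in LPS pools, 237, 264 and 299 in HPO pools, and 255, 826 and 288 in CTL pools. It was higher in COMB than in CTL by 1.44 (adjusted p = 0.0314 in limma). Unlike Ciita, Irf1 was as high in LPS pools as in the COMB pool of rats 2 and 3. Il4r, the interleukin 4 receptor, was higher by 1.03 and Smad3, a mediator of TGF-beta signals, by 0.84, while Jak2, a kinase of the interferon gamma receptor, was lower (-0.64). Ifng itself had 6.8, 42.8 and 94.0 in COMB pools, 5.6, 6.4 and 6.0 in LPS pools, 8.1, 6.2 and 5.9 in HPO pools, and 6.3, 12.0 and 5.9 in CTL pools. Values under 10.1 are below the 20th percentile of every array. Ifng was called higher in COMB than in LPS (2.19, adjusted p = 0.0479 in limma) and not in COMB against CTL (1.87, adjusted p = 0.064 in limma). The Ifng value of the COMB pool of rats 2 and 3 (6.8) was among those under 10.1, so its level there cannot be read. Cd74 was 3129 and RT1-Da 2305 in that pool. The part of Ifng in the class II levels was not tested. Of 16 interferon gamma response genes, 11 were called higher in COMB against CTL, among them Ubd (4.36) and Irgm (1.63), beside 11.0% of all genes. In LPS against CTL 2 were called higher, Psmb9 (0.68) and Psmb10 (0.59), beside 1.24% of all genes.

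Of 13 genes for endosomal proteases and antigen processing, 1 was called higher and 3 lower in COMB against CTL (median -0.02). Of all genes, 11.0% were called in each direction. Ctse, the endosomal protease cathepsin E, had 66.2, 371 and 254 in COMB pools, 33.0, 58.1 and 50.7 in LPS pools, and 29.7, 100.0 and 87.2 in CTL pools. It was called higher in COMB than in LPS (1.98, adjusted p = 0.0404 in limma) and not in COMB against CTL (1.51, adjusted p = 0.0815 in limma). Against CTL, Lgmn, an asparaginyl endopeptidase, was higher by 0.48. Ctsh, a cathepsin, was lower (-0.68, adjusted p = 0.00165 in limma), as were Sppl2a, the protease that clears the last membrane stub of the invariant chain (-0.70, adjusted p = 0.00401 in limma), and Marchf1, a ubiquitin ligase that takes class II molecules off the surface (-0.75, adjusted p = 0.0439 in limma). Marchf1 had 2067, 863 and 1342 in COMB pools and 2254, 2180 and 2312 in CTL pools, so that it was lowest in the COMB pools of rats 10 and 11 and of rats 12, 13 and 14. Of 5 measured costimulation genes, Cd83 was called lower (-0.65, adjusted p = 0.0454 in limma) and the other 4 were not called. The further class II chain and DO genes of the list (RT1-Db2, RT1-DOa, RT1-DOb, RT1-Ha and RT1-Hb) were not analysed here.

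Markers of other cells are given as counts, to be read beside 11.0% of all genes called higher and 11.0% called lower in COMB against CTL, and as sums over probe sets of different brightness, which the brightest genes dominate. Of 13 T and NK cell markers, 3 were called higher in COMB against CTL and 8 in COMB against LPS, where 8.64% of all genes were. Their summed intensity was 1380, 8420 and 6880 in COMB pools, 696, 1130 and 705 in LPS pools, 1270, 1070 and 963 in HPO pools, and 677, 3350 and 1220 in CTL pools. Cd3e, a chain of the T cell receptor complex, had 213, 1319 and 762 in COMB pools and 67.1, 233 and 188 in CTL pools (2.06, adjusted p = 0.0305 in limma). Of 11 B cell markers none was called in COMB against CTL. Fcrla, a protein of B cells, made up 80.6% to 91.6% of their summed intensity and differed by 0.18 (adjusted p = 0.742 in limma). The sum of the other 10 was 420, 1000 and 860 in COMB pools, 484, 472 and 544 in LPS pools, 510, 535 and 358 in HPO pools, and 422, 484 and 696 in CTL pools. Cd79b, a chain of the B cell receptor, had 18.2, 64.1 and 65.5 in COMB pools and 17.9, 18.1 and 31.4 in CTL pools (0.94, adjusted p = 0.111 in limma). Ms4a1, the B cell surface protein CD20, had 28.2, 337 and 237 in COMB pools, 37.4, 41.0 and 28.7 in LPS pools, 37.5, 39.8 and 25.4 in HPO pools, and 27.7, 33.2 and 172 in CTL pools, and Pou2af1, a B cell coactivator, had 13.5, 102 and 74.2 in COMB pools and 7.6, 10.5 and 54.8 in CTL pools. The pools high in Ms4a1 and Pou2af1 were those high in 1371065_at of RT1-Bb. The COMB pool of rats 2 and 3 had Ms4a1 within the range of the HPO pools. Its Cd74 (3129) was the lowest of the COMB pools and above every pool of the other groups, and its RT1-Da (2305) and RT1-Db1 (1046) were the highest of all pools. The part of B cells in these levels was not tested.

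The COMB pool of rats 2 and 3 was also taken as the only COMB pool, a choice made after seeing the data. Its difference from CTL was 1.27 for Ciita, 1.68 for Cd74, 1.97 for RT1-Da and 2.06 for RT1-Db1. A lone pool has no spread of its own, so no p value is given. That pool also had the highest summed intensity of airway epithelium (27900) and alveolar type 2 cell (4600) markers. The part of any cell type in these differences was not tested.

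**Figure D5:**
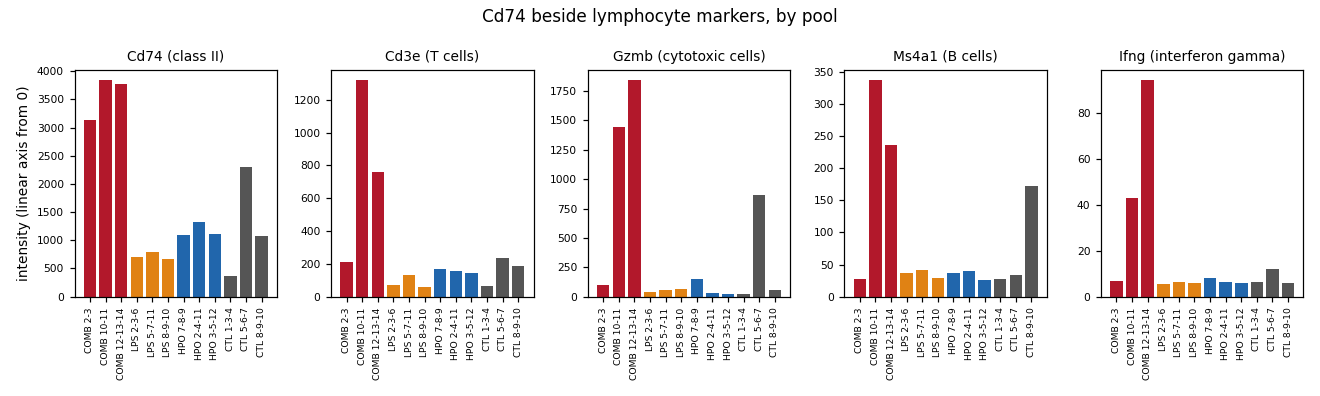
Intensity (linear axis from 0, a scale of its own in each panel) of Cd74, the T cell gene Cd3e, the cytotoxic gene Gzmb, the B cell gene Ms4a1 and Ifng in the 12 pools, COMB at the left and CTL at the right. The COMB pool of rats 2 and 3 had Cd74 at 3129 with Ms4a1 at 28.2 and Ifng at 6.8.

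Of 11 dendritic cell markers, 3 were called higher and 2 lower in COMB against CTL, with a median of -0.08 and summed intensities of 2370 to 5090 in COMB pools and 2270 to 2480 in CTL pools. Clec10a, a lectin of dendritic cells and macrophages, had 982, 549 and 2792 in COMB pools, 746, 768 and 771 in LPS pools, 35.2, 63.1 and 55.9 in HPO pools, and 22.8, 45.0 and 26.8 in CTL pools, so it was high in LPS pools in which Cd74 was not. Ccl17, a chemokine, had 174, 173 and 405 in COMB pools, 70.4, 106 and 92.0 in LPS pools, and 77.2, 68.0 and 43.5 in CTL pools. It was called higher in COMB than in CTL (1.90), LPS (1.37) and HPO (1.96), as Cd74 was. Ccl22 was also higher than in CTL (0.84), and Cd83 (-0.65) and Cd1d1 (-1.31) were lower. Of 14 alveolar macrophage markers, 5 were called lower in COMB against CTL, among them Pparg (-1.47) and Cidec (-2.42), and 1 higher, Car4 (3.18). Of 8 recruited monocyte markers 3 were called higher and 1 lower, with sums of 8290 to 8980 in COMB and 7690 to 8090 in CTL pools. Of 10 neutrophil markers 5 were called higher and 1 lower, with sums of 7510 to 14300 in COMB, 2520 to 3050 in LPS, 408 to 599 in HPO and 554 to 3620 in CTL pools. Airway epithelium markers were called higher in 16 of 17 cases, with summed intensities of 19800 to 27900 in COMB pools and 6230 to 9630 in CTL pools, and alveolar type 2 cell markers, cells that can carry class II molecules, were called higher in 6 of 12 and lower in 2. Their summed intensity was 3230 to 4600 in COMB pools and 1910 to 2070 in CTL pools, highest in the COMB pool of rats 2 and 3. The part of any of these cells in the class II levels was not tested.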

How the data were processed

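Total RNA of BALF cells was pooled by group and hybridised to 12 Affymetrix Rat Genome 230 2.0 arrays. The authors deposited linear intensities, 1 for each of 31099 probe sets on each array. The study's text names the software but no method of normalization, and the values were used as deposited. Groups came from the sample labels. Of the probe sets, 20832 name 1 gene, 436 several and 9831 none in the platform annotation. The 57 controls were left out, and a probe set was tested when brighter than its array's 20th percentile (10.1 to 11.3) on at least 3 arrays, which left 25692. Intensities were taken as log2 of the value plus 1, and a model of 4 group means was fitted to the 12 arrays with limma 3.58.1 under R 4.3.3 (8 residual degrees of freedom, 3.94 from the prior). limma's p values were adjusted over all probe sets tested (Benjamini-Hochberg). The fit was tested on simulated data. The number of arrays limits the precision.

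All 8 genes are named with every pool. Of other lists, counts, medians and up to 4 called genes per comparison with the largest change are named, besides the factors on the X and Y boxes, Ifng, Gzmb, Cxcl11, Ms4a1, Pou2af1, Fcrla, Cd79b and Ctse, which were picked with their values in view. The lists hold X and Y box factors, inputs of the Ciita gene, endosomal proteases and antigen processing, costimulation, further class II chains and DO, interferon gamma response, and markers of B cells, dendritic cells, alveolar macrophages, recruited monocytes, neutrophils, T and NK cells, airway epithelium and alveolar type 2 cells. The genes and lists were chosen with earlier results of these data known. Correlations are Pearson's r of log2 values. Promoters are those of RefSeq, GRCr8. Figures were drawn with matplotlib 3.10.9 in Python 3.11.15.

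Alternatives were quantile normalization, centring of each array on its median, other pseudocounts, other filters, array weights and weighting pools by how many rats they held. Further ones were a trended and robust fit, only the groups compared, 1 probe set per gene and the mean of a gene's probe sets. The rest were an unpaired t-test, a 2-fold criterion, a replicate block and the omission of each pool. The array methods of the study name a paired t-test, but its pairing is not given. Omissions of several pools were added after seeing the data.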

Additional observations from a re-analysis of the deposited data

How the results depend on the processing

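The counts of class II genes called were within 1.5 times the reported ones for every comparison under quantile normalization, centring, both other pseudocounts, no filter, the 50th percentile filter, weights by the number of rats, 1 probe set per gene, the mean of a gene's probe sets and the added 2-fold criterion beside the adjusted p. With array weights the counts were 5 for COMB against HPO, 5 for the interaction, 1 for LPS and 2 for HPO against CTL. Of all 12853 genes, that fit called 3845 for COMB against HPO and 1232 for the interaction. It called 2273 for LPS and 1667 for HPO against CTL. The trended and robust fit called 2 genes (Ciita and Cd74) in COMB against CTL, beside 2927 of all 12853 genes. In COMB against HPO it lost Cd74 (adjusted p = 0.0833 in limma) and RT1-Ba (0.0518) and called RT1-DMb lower, as quantile normalization did. There the 50th percentile filter added RT1-Db1 (0.0459), and the mean of a gene's probe sets lost RT1-Ba. Fitting only the groups compared gave 1 (Ciita) in COMB against CTL and 5 in COMB against HPO, beside 1994 and 1209 of all genes. An unpaired t-test at an unadjusted p under 0.05 gave 1 for COMB against CTL, 1 for LPS against CTL and 5 for COMB against HPO. Of all genes it called 3685, 2690 and 2750 in these comparisons. After Benjamini-Hochberg it gave 0 for COMB against CTL, 1 for COMB against LPS and 1 for COMB against HPO. It then called 339, 9 and 14 of all genes. A 2-fold change with no test gave 2 genes for HPO against CTL and 6 for COMB against HPO, beside 124 and 747 of all genes. Leaving out each pool in turn gave 2 to 4 for COMB against CTL, 3 to 4 for COMB against LPS, 1 to 3 for COMB against HPO, 0 to 4 for the interaction and 0 for LPS or HPO against CTL. Of all genes, 1831 to 2810 were then called for COMB against CTL and 908 to 1882 for COMB against LPS. For COMB against HPO it was 1694 to 2494, and for the interaction 2 to 400. No count is given for fits with the COMB pool of rats 2 and 3 as the only COMB pool, as it has no spread of its own. With the CTL pool of rats 5, 6 and 7 left out too, the RT1-Bb difference from CTL was 3.84, against -0.15 with all pools. The causes of these shifts were not tested. CTL and LPS pools share some rat numbers, but the rats differ. Their deviations from the group means correlated by -0.02 to 0.06 in 3 pairs, and a fit with these numbers as a replicate block called 0 genes in LPS against CTL, as without it.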
